A study of Mus musculus with 4 samples.

Results

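The genes described here are the subunits of the respiratory chain and ATP synthase, encoded by mitochondrial DNA or by the nucleus. They were taken by symbol, as every feature starting mt-, Nduf, Sdh (a to d), Uqcr, Cox4, Cox5, Cox6, Cox7, Cox8 or Atp5 with at least 50 unique molecular identifiers (UMIs, 1 per captured transcript) over the 4 libraries. The symbols matched 106 of 31053 features, and 103 passed: 13 mitochondrial-encoded and 90 nuclear-encoded genes, among 13306 features that reached the same minimum. Just outside were Cox7b2 with 1 UMI, Cox8c with 0 and a second entry of Atp5o with 0, and just inside were Cox6b2 with 76 UMIs and Cox4i2 with 106. Of the nuclear members, 36 encode complex I subunits, 8 complex I assembly factors, 4 complex II, 8 complex III, 17 complex IV and 15 complex V. Cox7a2l, a factor of respiratory supercomplexes, and Atp5s were kept apart from the complexes.

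Single cells came from B16F10 tumours, a transplantable mouse melanoma line, after red cell lysis and removal of debris and dead cells. There was 1 library in each of 4 groups, named aPD-1 (PD-1 blockade), D+F, D+F+P and control in the labels, which do not spell out the letters D, F and P and give no dose, time or number of mice. B16F10 is one line, so all melanoma cells of the 4 libraries share its background. With 1 library per group no difference between groups could be tested. Each ratio below therefore carries a 95% interval that covers counting error only, and none of them measures how tumours of one treatment vary. Log2 ratios are of a treated library over control unless another pair is named, and 3 in a row stand for aPD-1, D+F, D+F+P.

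Electrons enter the chain at complex I or complex II, pass through complex III to complex IV, and the proton gradient that complexes I, III and IV build drives ATP synthesis by complex V. Mitochondrial DNA encodes core subunits of complexes I, III, IV and V, whereas complex II and the remaining subunits are encoded in the nucleus and imported. Mitochondrial transcripts are made as long precursors from each strand and cut apart, and some neighbouring messages stay joined or overlap, while nuclear members are transcribed singly, in part under NRF1 and ETS family factors.

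The overlaps of the mitochondrial genes are shown first because reads from bases shared on the same strand cannot be given to one gene, which limits how finely neighbouring levels can be read. In GRCm38, mt-Atp8 and mt-Atp6 shared 43 bases, mt-Nd4l and mt-Nd4 shared 7, mt-Atp6 and mt-Co3 shared 1, and mt-Nd5 shared 14 with mt-Nd6, the one member coded on the opposite strand, so that counting by strand can tell this pair apart. Capitals mark the shared bases and lower case the 12 bases on each side, all on the plus strand.
mt-Atp8 and mt-Atp6, chrM:7915-7981: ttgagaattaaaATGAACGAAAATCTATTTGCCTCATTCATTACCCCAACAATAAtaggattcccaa
mt-Atp6 and mt-Co3, chrM:8595-8619: tgataatacataAtgacccaccaaa
mt-Nd4l and mt-Nd4, chrM:10155-10185: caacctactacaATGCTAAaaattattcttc
mt-Nd5 and mt-Nd6, chrM:13540-13577: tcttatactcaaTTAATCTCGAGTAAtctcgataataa

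On the nuclear side, RefSeq promoters of GRCm38.p6 (250 bases before and 50 after the gene start) matched 75 of the 90 members. The NRF1 motif, a run of 10 letters shown in capitals below, searched on both strands, was in 19 of them (25.3%), against 5.19% of all 27025 promoters and 11.5% of the 10048 whose genes reached 50 UMIs. The ETS motif CCGGAAG was in 18 (24.0%), against 9.93% of all and 20.3% of those with 50 UMIs, and the YY1 motif in 6 (8.0%), against 0.995% and 2.40%. A match is a description of the letters and not evidence of binding. Stretches around an NRF1 match, in capitals, are shown for a subunit of complex II (Sdha), of complex IV (Cox6a1) and of complex V (Atp5g2 and Atp5k), all on the minus strand.
Sdha, chr13:74350309-74350358: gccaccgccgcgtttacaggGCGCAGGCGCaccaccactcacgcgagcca
Cox6a1, chr5:115349091-115349140: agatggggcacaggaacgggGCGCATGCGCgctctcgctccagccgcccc
Atp5g2, chr15:102671060-102671109: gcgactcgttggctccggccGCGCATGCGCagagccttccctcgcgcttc
Atp5k, chr5:108434420-108434469: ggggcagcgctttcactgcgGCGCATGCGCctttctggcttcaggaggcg

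The deposited tables held 2525 barcodes for aPD-1, 2809 for D+F, 2739 for D+F+P and 2529 for control, with 22691663 to 34444856 UMIs each. After filters 9415 cells remained (2214, 2483, 2443 and 2275 in that order), and 50 barcodes occurred in more than 1 library. Median UMIs per cell were 9563.5 in aPD-1, 12882 in D+F and 1866 in D+F+P, against 16143 in control, so D+F+P stood apart in depth. Cells were clustered without the member genes and named from marker genes: 5172 were melanoma-like, with Mlana, Pmel and the other pigment lineage markers, and 911 were CD8 T-like. Clusters with a median of under 10% of UMIs from cytosolic ribosomal protein genes are called low-ribosomal; they held 188 melanoma-like, 1381 T-like and 35 neutrophil-like cells, and 1060 of the T-like cells lay in D+F+P. The CD8 T-like class had 7 control cells and is not compared with control. The levels given are shares of all UMIs of a class, or UMIs of a gene per 1000000 UMIs of the class (CPM); a transcript is counted once at its 5′ end, so levels are not divided by transcript length.

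Melanoma-like cells had a larger share of mitochondrial-encoded message in every treated library than in control, and almost the same share of nuclear-encoded message. The 13 mitochondrial genes together held 3.16% of UMIs in aPD-1, 2.81% in D+F and 2.80% in D+F+P, against 2.40% in control. The log2 ratios to control were 0.40 (95% interval 0.39 to 0.40), 0.23 and 0.22, or 1.32-, 1.17- and 1.17-fold. The nuclear members held 6.45% in aPD-1, 6.45% in D+F and 6.40% in D+F+P, against 6.62% in control; their log2 ratios of −0.04, −0.04 and −0.05 changed sign, to 0.016, 0.0052 and 0.0099, when mitochondrial and ribosomal protein genes were left out of the total. There were thus 0.490, 0.436 and 0.437 mitochondrial-encoded UMIs per nuclear-encoded UMI in aPD-1, in D+F and in D+F+P, against 0.363 in control. Per cell, the median mitochondrial share was 2.91% (quartiles 2.23 to 3.94) in aPD-1, 2.62% (2.0 to 3.62) in D+F and 2.49% (1.94 to 3.49) in D+F+P, against 2.29% (1.80 to 2.89) in control, so the cells of the 4 libraries overlapped widely. The ribosomal protein share was also above control in each treated library, at 22.1% in aPD-1, 21.9% in D+F and 22.7% in D+F+P, against 20.1% in control. It ranked the treated libraries in another order than the mitochondrial share, and its part in the difference was not tested.

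**Figure D1:**
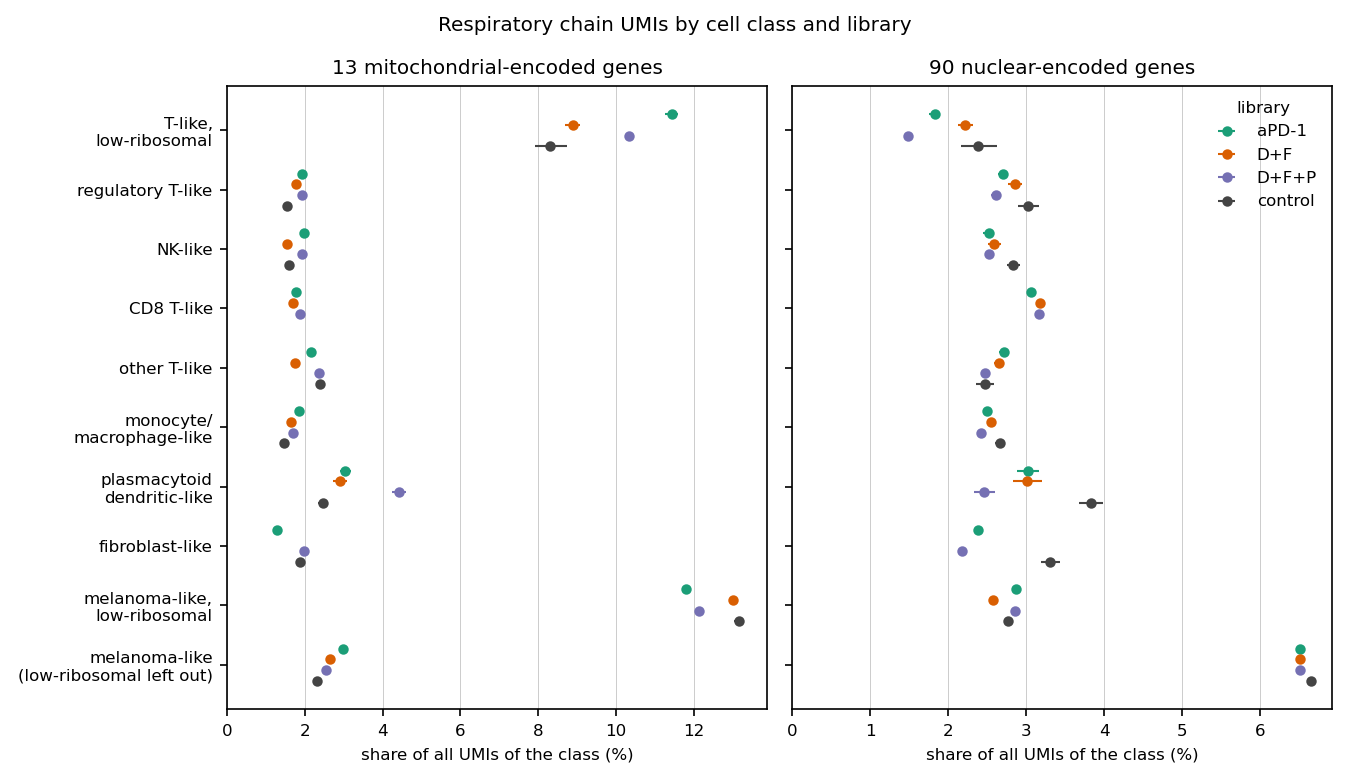
Mitochondrial-encoded (left) and nuclear-encoded (right) share of all UMIs of a class, in percent, for 10 cell classes and the 4 libraries, with 95% Clopper-Pearson bars and no point for a library with under 10 cells of the class. CD8 T-like cells had 3.07 to 3.17% nuclear-encoded UMIs, against 6.51 to 6.65% in melanoma-like cells without the low-ribosomal cluster, and the low-ribosomal classes stood highest for the mitochondrial genes.

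The size of the difference depended on which melanoma-like cells were read. Without the low-ribosomal cluster the mitochondrial share was 2.99% in aPD-1, 2.65% in D+F and 2.53% in D+F+P, against 2.31% in control, with log2 ratios of 0.37, 0.20 and 0.14. The libraries also differed in which clusters they held: 5.83% of D+F+P melanoma-like cells lay in cluster 3, led by the cell-cycle genes Cdk1, Tk1 and Rrm2, against 34.5% in control, while 49.2% of D+F+P cells lay in cluster 4, led by the interferon-induced genes Gbp2, Gbp4 and Igtp, against 6.83% in control. Weighting the clusters equally gave 0.28 and 0.17 for aPD-1 and D+F and 0.0054 for D+F+P, an alternative chosen after seeing the data. Within cluster 4 the mitochondrial genes held 3.32% in aPD-1, 2.82% in D+F and 2.68% in D+F+P, against 2.34% in control, and within cluster 0 they held 2.83% in aPD-1, 2.51% in D+F and 2.37% in D+F+P, against 2.25% in control. Within cluster 3 aPD-1 and D+F were higher than control, at 2.67% and 2.35% against 2.12%, whereas D+F+P was lower at 1.93%. The excess in aPD-1 was thus present in each of the melanoma-like clusters outside the low-ribosomal one, and the excess in D+F+P in clusters 0 and 4 with 2.63% against 2.62% in cluster 2. Cluster 7 held 10 D+F+P cells, and its summed share was not compared for that library.

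The 13 mitochondrial genes did not differ alike. mt-Co1, the catalytic subunit of complex IV, had the largest excess: 7242 CPM in aPD-1, 6679 in D+F and 6342 in D+F+P, against 4827 in control, a log2 ratio of 0.59 (0.57 to 0.60), 0.47 and 0.39. mt-Co2, which takes electrons from cytochrome c, had 6101 CPM in aPD-1, 5523 in D+F and 5410 in D+F+P, against 4902 in control (0.32, 0.17 and 0.14). mt-Co3, the third core subunit, had 2858 CPM in aPD-1, 2411 in D+F and 2520 in D+F+P, against 2076 in control (0.46, 0.22 and 0.28). Over the class all 3 complex IV genes were thus higher in each treated library, and their sum differed by 0.46, 0.31 and 0.27. For mt-Co1, mt-Co2 and mt-Co3, control was the lowest library in 4, 3 and 4 of 6 melanoma-like clusters, and D+F+P in 2, 2 and 1.

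For complex V, mt-Atp6, a subunit of the proton channel, had 4413 CPM in aPD-1, 3781 in D+F and 3690 in D+F+P, against 3169 in control, with log2 ratios of 0.48, 0.25 and 0.22. mt-Atp8, whose message is shared with it, had 1002 CPM in aPD-1, 1031 in D+F and 1096 in D+F+P, against 936 in control (0.10, 0.14 and 0.23). mt-Cytb, the one mitochondrial subunit of complex III, had 4201 CPM in aPD-1, 3761 in D+F and 3561 in D+F+P, against 3355 in control (0.32, 0.16 and 0.09). Over the class these 3 genes were higher in all treated libraries, but not in every cluster. For mt-Atp6, mt-Atp8 and mt-Cytb, control was the lowest library in 3, 2 and 2 of 6 melanoma-like clusters, and D+F+P in 2, 2 and 4. Over the class, mt-Atp6 and mt-Atp8, which overlap by the 43 bases printed above, ranked the treated libraries in opposite order.

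The 7 complex I genes were mixed, with summed log2 ratios of 0.28 in aPD-1, 0.05 in D+F and 0.18 in D+F+P. mt-Nd4 had 884 CPM in aPD-1, 771 in D+F and 750 in D+F+P, against 635 in control (0.48, 0.28 and 0.24), mt-Nd5 had 727 in aPD-1, 632 in D+F and 630 in D+F+P, against 558 in control (0.38, 0.18 and 0.18), and mt-Nd2 had 812 in aPD-1, 677 in D+F and 685 in D+F+P, against 634 in control (0.36, 0.10 and 0.11). mt-Nd4l had 1668 CPM in aPD-1, 1428 in D+F and 1668 in D+F+P, against 1375 in control (0.28, 0.05 and 0.28), and mt-Nd1 had 1409 in aPD-1, 1218 in D+F and 1388 in D+F+P, against 1276 in control (0.14, −0.07 and 0.12). The remaining pair, mt-Nd3 and mt-Nd6, each stood low in a single library.

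mt-Nd3 had 244 CPM in aPD-1, 162 in D+F and 236 in D+F+P, against 231 in control, so its log2 ratio was −0.52 (−0.57 to −0.46) in D+F and 0.08 and 0.03 in the other treated libraries. D+F was the lowest library for mt-Nd3 in 6 of 6 melanoma-like clusters and in 12 of the 14 named clusters with 50 UMIs of the gene and 10 or more D+F cells, and the exceptions were the monocyte/macrophage-like and plasmacytoid dendritic-like clusters, where control was lowest. In T-like and NK-like cells outside the low-ribosomal clusters it had 251 CPM in aPD-1, 181 in D+F and 273 in D+F+P, against 243 in control (0.04, −0.42 and 0.17). Low mt-Nd3 thus went with the D+F library across melanoma-like and lymphoid clusters.

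mt-Nd6 had 38.1 CPM in aPD-1 (785 UMIs), 41.6 in D+F (1169 UMIs) and 27.0 in D+F+P (398 UMIs), against 40.8 in control (1322 UMIs), with log2 ratios of −0.10, 0.03 and −0.59 (−0.76 to −0.43). D+F+P was the lowest library in 9 of 9 named clusters with 50 UMIs of the gene, 6 of them melanoma-like, though by a narrow margin in the monocyte/macrophage-like cluster (32.6 CPM against 32.9 in aPD-1) and from 12 UMIs in melanoma-like cluster 7. In T-like and NK-like cells outside the low-ribosomal clusters mt-Nd6 had 47.0 CPM in aPD-1, 37.7 in D+F and 20.8 in D+F+P, against 77.1 in control, where that value rests on 26 UMIs (−0.71, −1.03 and −1.89, the last with an interval of −2.51 to −1.21). mt-Nd5 shares the 14 bases printed above on the other strand. Summed over D+F+P melanoma-like cells it was above control, at 630 against 558 CPM. By cluster, however, D+F+P was the lowest library for mt-Nd5 in 4 of the 6 melanoma-like clusters. The median depth of melanoma-like cells was 18849 UMIs in aPD-1, 16413 in D+F and 28596 in D+F+P, against 17837 in control. D+F+P, the library low in mt-Nd6, thus had the highest median depth in this class. The part of depth in the mt-Nd6 level was not tested.

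By a threshold of 1.5-fold, 1 of 13 mitochondrial genes was higher in aPD-1 (mt-Co1, and none once the low-ribosomal cluster was left out), against 4.4% of all genes with 50 UMIs, and none was lower, against 5.16%. None passed it in D+F, where 4.67% of genes were higher and 4.28% lower. In D+F+P 1 was lower (mt-Nd6) and none higher, where 9.7% of genes were lower and 7.38% higher. The medians of the 13 log2 ratios were 0.32, 0.16 and 0.18, beside −0.05, −0.07 and −0.10 over all genes.

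**Figure D2:**
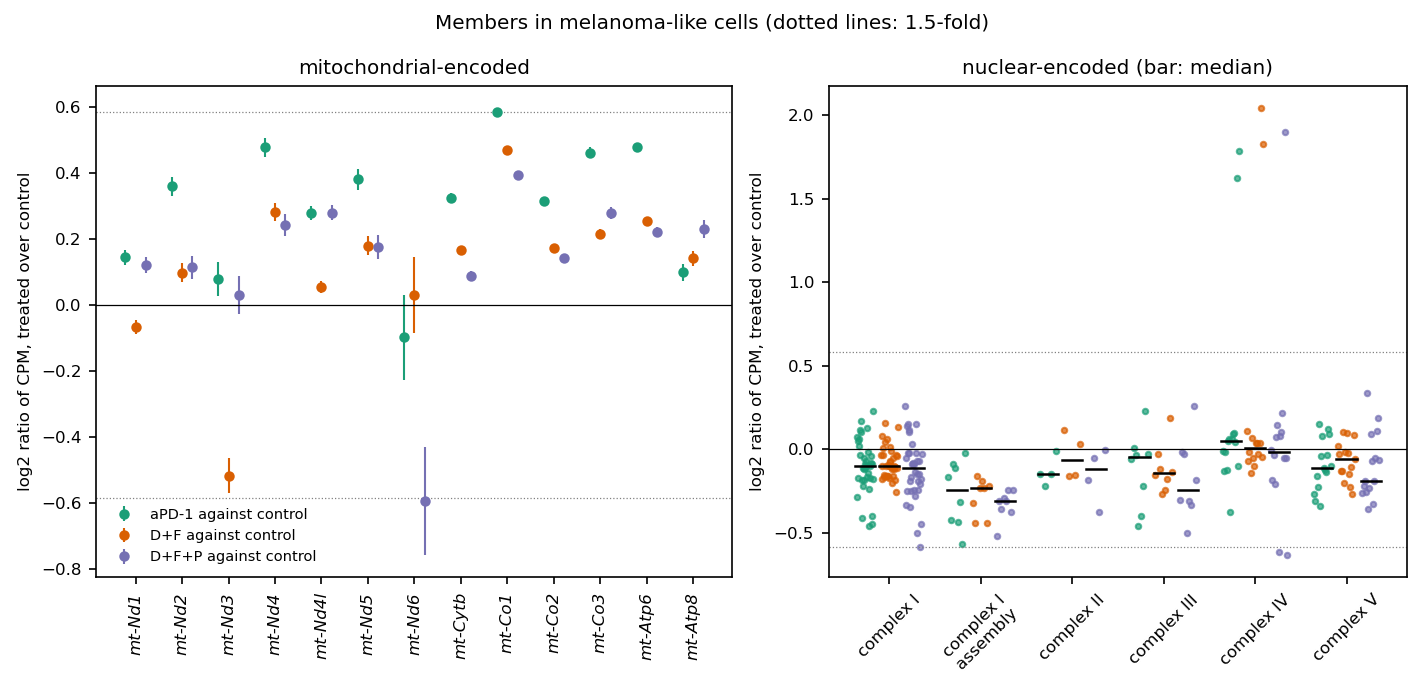
Log2 ratio of CPM of each treated library over control in melanoma-like cells, for the 13 mitochondrial genes with 95% counting intervals (left) and for nuclear members by complex (right; dots are genes and bars medians). Dotted lines mark 1.5-fold; mt-Co1 was highest in all 3 comparisons, mt-Nd3 lay at −0.52 in D+F and mt-Nd6 at −0.59 in D+F+P.

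Against each other, D+F+P and D+F melanoma-like cells had nearly the same mitochondrial share, 2.80% against 2.81%, and D+F+P was lower than aPD-1, at a log2 ratio of −0.17. The nuclear sum of D+F+P differed by −0.01 from both.

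Nuclear members lay close to control in melanoma-like cells. Of the 87 with 50 UMIs in the pair, 74 were within 25% of control (the higher level at most 25% above the lower) in aPD-1, 82 in D+F and 70 in D+F+P. Most were slightly lower: 63, 65 and 68 of 87 had a log2 ratio below 0, with medians of −0.10, −0.10 and −0.15 beside −0.05, −0.07 and −0.10 over all genes. Past 1.5-fold were 2 higher and 0 lower in aPD-1, 2 higher and 0 lower in D+F, and 1 higher and 3 lower in D+F+P, all of these shares below those given above for all genes.

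By complex, the summed log2 ratios in aPD-1, in D+F and in D+F+P were −0.05, −0.06 and −0.08 for complex I, −0.18, −0.11 and −0.08 for complex II, −0.02, −0.07 and −0.10 for complex III and −0.08, −0.04 and −0.06 for complex V. Complex IV was within 1% of control in each, at 0.0073, 0.0052 and 0.011. Median-of-ratios scaling raises every ratio by 0.054, 0.065 and 0.10 in the same order, so for complexes I, III and V the direction turns with the scaling in most libraries, and for complex II in D+F+P. All 8 complex I assembly factors were lower than control in each treated library, with medians of −0.24, −0.23 and −0.31, although the nearest to control, at −0.023 in aPD-1, would turn with that scaling. Among them, Ndufaf7, a methyltransferase that acts on a core subunit, had 19.3 CPM in aPD-1, 21 in D+F and 22 in D+F+P, against 28.5 in control (−0.57, −0.44 and −0.38), and Ndufaf2 had 62.6 in aPD-1, 61.7 in D+F and 67.8 in D+F+P, against 83.9 in control (−0.42, −0.44 and −0.31).

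In complex I, the core subunits Ndufs8, Ndufs1 and Ndufv1 were among the lowest members, while other core subunits lay nearer to control. Ndufs8 had 191 CPM in aPD-1, 217 in D+F and 173 in D+F+P, against 260 in control (−0.45, −0.26 and −0.59, the last with an interval of −0.65 to −0.52). Ndufs1 had 62.5 in aPD-1, 76.9 in D+F and 60.7 in D+F+P, against 85.9 in control (−0.46, −0.16 and −0.50), and Ndufv1, which binds NADH, had 129 in aPD-1, 157 in D+F and 125 in D+F+P, against 170 in control (−0.40, −0.11 and −0.45). For all 3, D+F was the treated library nearest to control. Ndufs7 had 319 CPM in aPD-1, 330 in D+F and 293 in D+F+P, against 338 in control (−0.09, −0.04 and −0.21), and Ndufv2 had 269.7 in aPD-1, 297 in D+F and 269.9 in D+F+P, against 305 in control (−0.18, −0.04 and −0.18); like the 3 lower ones, both bind iron-sulphur clusters. Ndufv3, the complex I subunit with the most UMIs over all cells, went the other way in 2 libraries, with 1134 CPM in aPD-1, 1062 in D+F and 949 in D+F+P, against 970 in control (0.23, 0.13 and −0.03), and the small accessory subunit Ndufa1 had 426 in aPD-1, 396 in D+F and 486 in D+F+P, against 406 in control (0.07, −0.03 and 0.26). Ndufb6, next to Ndufv3 in UMIs, had 822 CPM in aPD-1, 820 in D+F and 812 in D+F+P, against 865 in control (−0.07, −0.08 and −0.09).

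In complex II, Sdhb, the iron-sulphur subunit, had 971 CPM in aPD-1, 1012 in D+F and 1088 in D+F+P, against 1130 in control, with log2 ratios of −0.22, −0.16 and −0.05. Sdha, the flavoprotein that oxidises succinate, had 103 in aPD-1, 124 in D+F and 101 in D+F+P, against 114 in control (−0.15, 0.12 and −0.18). Of the membrane anchors, Sdhd had 179.5 CPM in aPD-1, 184.4 in D+F and 179.8 in D+F+P, against 180.4 in control (−0.01, 0.03 and −0.01), and Sdhc had 90.4 in aPD-1, 89.8 in D+F and 77.1 in D+F+P, against 100.1 in control (−0.15, −0.16 and −0.38). Sdhb was thus nearest to control in D+F+P, the library in which Sdhc was farthest from it.

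In complex III, Uqcrc1, a core protein, had 207 CPM in aPD-1, 237 in D+F and 201 in D+F+P, against 285 in control (−0.46, −0.27 and −0.50), while the hinge protein Uqcrh had 1459 in aPD-1, 1418 in D+F and 1491 in D+F+P, against 1245 in control (0.23, 0.19 and 0.26). Uqcrq, the complex III subunit with the most UMIs, had 1473 in aPD-1, 1367 in D+F and 1324 in D+F+P, against 1502 in control (−0.03, −0.14 and −0.18). Members of one complex thus lay on both sides of control in the same libraries. In complex V the same held: Atp5e, the epsilon subunit of the rotor, had 1725 CPM in aPD-1, 1673 in D+F and 1962 in D+F+P, against 1556 in control (0.15, 0.10 and 0.33), and Atp5k, a membrane subunit, had 197 in aPD-1, 151 in D+F and 195 in D+F+P, against 181 in control (0.12, −0.27 and 0.11). The c-ring genes Atp5g3 and Atp5g2, which encode the same mature protein, had 2969 CPM in aPD-1, 3153 in D+F and 3049 in D+F+P, against 3208 in control (−0.11, −0.03 and −0.07), and 1801 in aPD-1, 1823 in D+F and 1820 in D+F+P, against 1706 in control (0.08, 0.10 and 0.09). In complex IV, Cox8a had 3742 CPM in aPD-1, 3730 in D+F and 3497 in D+F+P, against 3630 in control (0.04, 0.04 and −0.05), and Cox5b had 2948 in aPD-1, 2941 in D+F and 2902 in D+F+P, against 2976 in control (−0.01, −0.02 and −0.04), so the most abundant subunits lay within a few percent of control. Cox7a2l, the supercomplex factor, had 161 CPM in aPD-1, 151 in D+F and 150 in D+F+P, against 137 in control (0.23, 0.14 and 0.13).

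A pair of complex IV genes made up the higher calls. Ndufa4l2 (chr10:127514967-127517154, plus strand), a hypoxia-induced relative of the complex IV subunit Ndufa4, had 13.1 CPM in aPD-1, 13.5 in D+F and 2.44 in D+F+P, against 3.79 in control, from 270, 378 and 36 UMIs in the treated libraries and 123 in control. Its log2 ratios were 1.79 (1.48 to 2.11), 1.83 (1.53 to 2.13) and −0.63 (−1.21 to −0.09). The aPD-1 and D+F libraries were high and the other pair low. It was found in 235 of 5172 melanoma-like cells (4.54%), against 4 of 911 CD8 T-like cells (0.439%), with median depths of 18186 and 7512 UMIs. In cluster 2, led by Ero1l, Espn and Hspb1, it had 31.6 CPM in aPD-1, 30.5 in D+F and 6.86 in D+F+P, against 11.6 in control. The same pattern was thus seen within one cluster, but the D+F+P value there rests on 48 cells and few UMIs.

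Cox8b (chr7:140898945-140900446, minus strand), the heart and muscle form of a small complex IV subunit, had 2.18 CPM in aPD-1, 2.92 in D+F and 2.65 in D+F+P, against 0.71 in control, from 45, 82 and 39 UMIs in the treated libraries and 23 in control. The log2 ratios were 1.62 (0.87 to 2.41), 2.04 (1.36 to 2.78) and 1.90 (1.12 to 2.71), so all 3 treated libraries were above control. UMIs were found in 155 of 5172 melanoma-like cells (3.0%), against 1 of 911 CD8 T-like cells (0.11%) and 0 of 503 monocyte/macrophage-like cells, a count that allows up to 0.596% of cells with a UMI; the median depths were 18186, 7512 and 3616 UMIs in that order, and the cell with the most UMIs held 4.23% of those in melanoma-like cells. Of 6 skeletal muscle markers 4 were detected in melanoma-like cells, summing to 6.94 CPM in aPD-1, 10.0 in D+F and 8.69 in D+F+P, against 6.66 in control, and Myh4 and Tnnt3 were at 0.

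The 3 lower members of D+F+P were Ndufs8, Ndufa4l2 and Cox7a1, the muscle form of another complex IV subunit, which had 5.2 CPM in aPD-1, 6.31 in D+F and 4.41 in D+F+P, against 6.76 in control (−0.38, −0.10 and −0.61). None of the 3 stayed past 1.5-fold once the low-ribosomal cluster was left out, and the count of 4 members past the fold became 1.

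Between treated libraries, no nuclear member was 1.5-fold higher in D+F+P than in D+F, where 3.74% of all genes were, and 1 was lower (Ndufa4l2), where 3.03% were. The log2 ratio of Ndufa4l2 in D+F+P over D+F was −2.46 (−3.0 to −1.97). Against aPD-1 the counts were again 0 higher and 1 lower, with 3.64% and 2.78% of all genes, and the lower one was Ndufa4l2 at −2.42. Members with small differences from D+F were Atp5k (0.37), Ndufa3 (0.31), Ndufa1 (0.30) and Cox7c (0.25) on the higher side, and Ndufs8 (−0.33), Ndufv1 (−0.33) and Atp5a1 (−0.28) on the lower side. From aPD-1, D+F+P differed by 0.22 for Ndufb2, 0.19 for Atp5e, 0.19 for Ndufa1 and 0.16 for Sdhb, and by −0.26 for Ndufv3, −0.25 for Uqcr10 and −0.20 for Atp5h.

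Genes outside the chain that make or feed it were read as lists in the same cells. The 25 genes of mitochondrial DNA expression had median log2 ratios of −0.25, −0.23 and −0.26 in aPD-1, in D+F and in D+F+P, the 78 mitochondrial ribosomal proteins −0.18, −0.15 and −0.23, and the 17 citrate cycle genes −0.26, −0.10 and −0.29, all below the medians of all genes given above. Of the DNA expression genes, 3 were 1.5-fold lower in aPD-1, 1 was higher in D+F and 4 were lower in D+F+P. Of the mitochondrial ribosomal proteins, 1 was lower in aPD-1, 1 lower in D+F, and 1 higher and 4 lower in D+F+P, and of the citrate cycle genes 1 was lower in D+F+P. Over all genes 5.16% were lower in aPD-1, 4.67% higher and 4.28% lower in D+F, and 7.38% higher and 9.7% lower in D+F+P. In D+F+P the lower 4 of 78 and 1 of 17 were thus no larger a share than among all genes. The 3 of 25 DNA expression genes lower in aPD-1 and the 4 of 25 lower in D+F+P were a larger share. That difference rests on few genes and was not tested. The ends of these lists were Mterf1a (−0.81 in aPD-1), Fastkd2 (−0.83 in D+F+P), which acts on mitochondrial RNA, the polymerase subunit Polg2 (0.27, 0.65 and 0.32) and the citrate cycle enzymes Fh1 (−0.53 in aPD-1) and Idh3a (−0.61 in D+F+P). The 33 assembly factors of complexes II to V with 50 UMIs had medians of −0.03, −0.06 and −0.07, and the 9 biogenesis regulators −0.08, −0.11 and −0.03. The 87 cytosolic ribosomal proteins lay above control, with medians of 0.14, 0.12 and 0.17.

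In T-like and NK-like cells the mitochondrial share was 2.21% in aPD-1, 2.01% in D+F and 3.09% in D+F+P, against 2.05% in control, with log2 ratios of 0.10, −0.03 and 0.59. With no cap on the mitochondrial share per cell, and the cells clustered anew, the aPD-1 ratio was −0.24. The class then held 591 aPD-1 cells, against 684 with the cap. With the cap, the D+F+P value held 1060 low-ribosomal T-like cells. Without such clusters the shares were 1.83% in aPD-1, 1.68% in D+F and 1.92% in D+F+P, against 1.72% in control, with log2 ratios of 0.09, −0.03 and 0.16. The nuclear members then held 2.98% in aPD-1, 3.03% in D+F and 3.03% in D+F+P, against 2.89% in control (0.04, 0.07 and 0.07). D+F+P had the highest mitochondrial share with or without the low-ribosomal clusters, but most of its difference from control lay in them.

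Outside the low-ribosomal clusters, 3 of 81 nuclear members were 1.5-fold lower in aPD-1 and 0 higher, where 14.8% of all genes were lower and 13.8% higher. In D+F 0 of 79 passed in either direction, where 10.6% of genes were higher and 11.5% lower, and in D+F+P 1 of 83 was higher and 0 lower, where 17.9% and 16.9% were. The 3 lower in aPD-1 were Ndufs1 (−0.62), Ndufaf2 (−0.68) and Ndufaf4 (−0.59), and the one higher in D+F+P was Ndufaf1 (0.65). Cox5a, a matrix-side complex IV subunit, had 785 CPM in aPD-1, 866 in D+F and 836 in D+F+P, against 641 in control, with log2 ratios of 0.29 (0.09 to 0.50), 0.43 and 0.38. Atp5f1, a stalk subunit of complex V, differed by 0.30, 0.47 and 0.38. Ndufa4 had 409 CPM in aPD-1, 487 in D+F and 475 in D+F+P, against 537 in control, with −0.39 (−0.62 to −0.16) in aPD-1, and Sdhd had 117 in aPD-1, 143 in D+F and 119 in D+F+P, against 166 in control (−0.50, −0.22 and −0.48). Control had few such cells, so these intervals are wide.

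CD8 T-like cells could be compared among treated libraries, with 344 cells in aPD-1, 175 in D+F and 385 in D+F+P. Their mitochondrial share was 1.78% in aPD-1, 1.68% in D+F and 1.88% in D+F+P, and their nuclear share 3.07% in aPD-1, 3.17% in D+F and 3.17% in D+F+P. D+F+P was thus higher than D+F by 0.16 and than aPD-1 by 0.08 for the mitochondrial genes. Atp5k was higher in D+F+P than in D+F by 0.49 (0.25 to 0.73), followed by Cox7c (0.34), Cox6c (0.33) and Atp5e (0.25), and Ndufv1 (−0.39), Uqcrc1 (−0.34), Ndufb8 (−0.26) and the catalytic ATP synthase subunit Atp5b (−0.22) were lower. In melanoma-like cells of this pair of libraries Atp5k was at 0.37, Cox7c at 0.25 and Ndufv1 at −0.33. Against aPD-1, Ndufa4 (0.30), Ndufa12 (0.28), Atp5k (0.27) and Uqcr10 (0.25) were higher and Cox7a2l (−0.26) and Ndufv3 (−0.16) lower.

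Monocyte/macrophage-like cells had mitochondrial shares of 1.86% in aPD-1, 1.63% in D+F and 1.69% in D+F+P, against 1.46% in control (0.35, 0.16 and 0.21), and nuclear shares of 2.50% in aPD-1, 2.55% in D+F and 2.42% in D+F+P, against 2.67% in control (−0.09, −0.07 and −0.14). Nuclear members past 1.5-fold were 1 higher and 3 lower of 76 in aPD-1, where 15.8% of all genes were higher and 11.5% lower, 1 and 3 of 70 in D+F, with 12.8% and 11.6%, and 0 and 8 of 72 in D+F+P, with 18.3% and 15.2%. Ndufa4 had 371 CPM in aPD-1, 444 in D+F and 376 in D+F+P, against 657 in control (−0.83, −0.57 and −0.80; the first with an interval of −1.09 to −0.55). Ndufv3 differed by −0.49, −0.80 and −1.10, Ndufab1, the mitochondrial acyl carrier protein, by −1.25 in D+F+P, and Cox7a2 by −0.81 in D+F, while Atp5f1 was higher by 0.44, 0.55 and 0.52. The melanoma markers summed to 497 CPM in aPD-1, 725 in D+F and 374 in D+F+P monocyte/macrophage-like cells, against 1889 in control, and Ndufa4 is much higher in melanoma-like cells; the part of melanoma RNA in the lower values was not tested. In NK-like cells the mitochondrial share was 1.97% in aPD-1, 1.53% in D+F and 1.91% in D+F+P, against 1.59% in control, and the nuclear share 2.52% in aPD-1, 2.59% in D+F and 2.53% in D+F+P, against 2.83% in control.

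Set beside melanoma-like cells of the same library, every immune class compared held less nuclear-encoded message. Leaving the low-ribosomal clusters out, CD8 T-like cells had a summed log2 ratio of −1.09 in aPD-1, −1.04 in D+F and −1.04 in D+F+P, and 63 of 86, 61 of 87 and 59 of 85 members were 1.5-fold lower, where 45%, 45.8% and 40.4% of all genes were. Monocyte/macrophage-like cells had −1.38, −1.35, −1.43 and −1.32 in aPD-1, D+F, D+F+P and control, with 77 of 86, 79 of 87, 76 of 85 and 78 of 86 lower, where 49.8%, 52.1%, 51.5% and 55.6% of all genes were. The mitochondrial genes differed less, by −0.75, −0.65 and −0.43 for CD8 T-like cells and by −0.69, −0.70, −0.59 and −0.66 for monocyte/macrophage-like cells. The immune classes therefore had more mitochondrial-encoded UMIs per nuclear-encoded UMI, 0.530 to 0.592 in CD8 T-like and 0.546 to 0.743 in monocyte/macrophage-like cells, against 0.347 to 0.459 in melanoma-like cells.

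The lower nuclear level was not shared by every member. Among members measured in all 3 treated libraries, Ndufa4 was the lowest in CD8 T-like cells, with a median log2 ratio to melanoma-like cells over libraries of −2.59, and it was at −2.68 in NK-like and −2.81 in monocyte/macrophage-like cells. Ndufa5, a complex I subunit, was at −2.46, −2.79 and −2.40 in the same classes. Cox7a2l stood on the other side, at 0.51 in CD8 T-like, 0.64 in NK-like, 0.58 in regulatory T-like and 0.31 in monocyte/macrophage-like cells. Melanoma markers in CD8 T-like cells were at 0.803 to 2.34% of their level in melanoma-like cells.

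Tissue isoforms of complex IV differed between classes. Cox6a2 (chr7:128205435-128206387, minus strand), the heart and muscle form of subunit 6a, had 1711 CPM in aPD-1, 1576 in D+F and 1473 in D+F+P plasmacytoid dendritic-like cells, against 1722 in control, and was found in 45 of 59 of these cells (76.3%, 63.4 to 86.4). A UMI was found in 0 of 911 CD8 T-like cells, a count that allows up to 0.329% of cells with a UMI, and in 0.677% of melanoma-like cells; the median depths were 3047, 7512 and 18186 UMIs in plasmacytoid dendritic-like, CD8 T-like and melanoma-like cells. Cox6a1, the widely used form, had 1052 CPM over the libraries in melanoma-like cells without the low-ribosomal cluster. Cox6a2 was not used for clustering, and its level in this class was alike in the 4 libraries.

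Ndufa4l2 was highest in fibroblast-like cells, with 886 CPM in aPD-1, 1143 in D+F and 693 in D+F+P, against 441 in control, and was found in 55 of 90 of them (61.1%). These levels rest on 44 cells in aPD-1, 7 in D+F and 25 in D+F+P, against 14 in control. Melanoma markers in them were at 0.604% of the melanoma-like level in aPD-1 and 0.931% in D+F+P, against 35.8% in control, and the part of melanoma RNA in the lower control value was not tested. Cox4i2, the hypoxia-responsive form of subunit 4, was found in 15 of 90 fibroblast-like cells (16.7%) and 19 of 503 monocyte/macrophage-like cells (3.78%), against 4 of 5172 melanoma-like cells, with 41.2 and 19.1 CPM in the first pair. Cox6b2, the testis form of subunit 6b, was at 10.7 CPM in monocyte/macrophage-like cells and at 0.106 in melanoma-like cells. Over the libraries, the common forms were highest in melanoma-like cells without the low-ribosomal cluster, where Cox8a had 3696 CPM, Cox4i1 2614 and Ndufa4 2910.

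**Figure D3:**
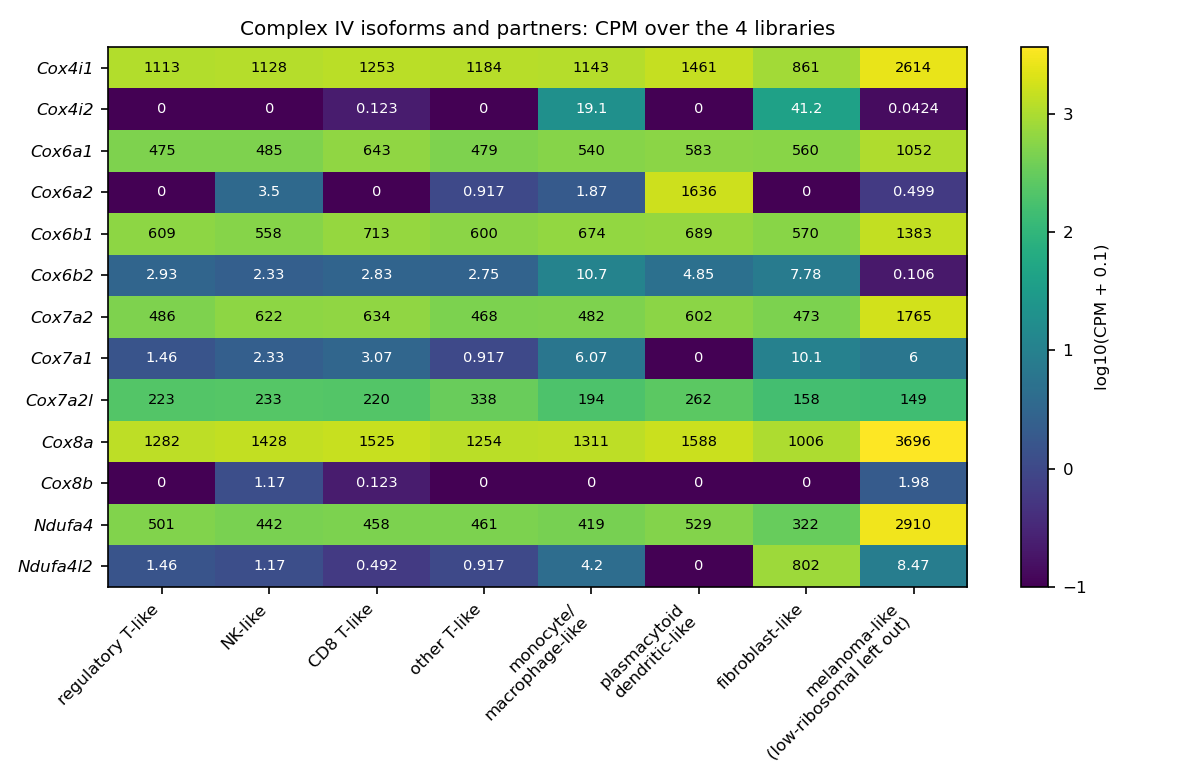
Heat map of the CPM over the 4 libraries (printed in each cell; colour is log10(CPM + 0.1)) for 13 complex IV isoforms and partners in 8 cell classes. Cox6a2 stands out in plasmacytoid dendritic-like cells (1636 CPM) and Ndufa4l2 in fibroblast-like cells (802 CPM), while Cox8a, Cox4i1 and Ndufa4 are highest in melanoma-like cells without the low-ribosomal cluster.

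The make-up of the mitochondrial message also differed by class. mt-Co3 made up 14.6 to 16.4% of mitochondrial UMIs in CD8 T-like, 14.1 to 15.9% in NK-like and 12.6 to 15.1% in monocyte/macrophage-like cells, against 8.53 to 9.04% in melanoma-like cells without the low-ribosomal cluster, so the ranges over libraries did not overlap. mt-Cytb went the other way, with 9.30 to 10.8% in CD8 T-like and 8.05 to 9.18% in NK-like cells, against 13.1 to 14.1% in melanoma-like cells. Fibroblast-like cells were near melanoma-like cells for mt-Cytb (13.4 to 14.2%) and between the others for mt-Co3 (9.96 to 12%). mt-Atp6, whose coding sequence ends where mt-Co3 begins, overlapped, at 12.4 to 13.1% in CD8 T-like and 12.7 to 13.7% in melanoma-like cells. Per mt-Atp6 UMI there were 1.26, 1.24 and 1.16 mt-Co3 UMIs in aPD-1, in D+F and in D+F+P CD8 T-like cells. In melanoma-like cells there were 0.657, 0.645 and 0.707 in the treated libraries, against 0.660 in control. Libraries also differed within a class. In melanoma-like cells the widest range in percentage points was that of the mt-Co1 share, with 23.0% in aPD-1, 23.8% in D+F and 22.8% in D+F+P, against 20.1% in control. In plasmacytoid dendritic-like cells, 59 in all, there were 0.483 mt-Cytb UMIs per mt-Co3 UMI in aPD-1, 0.381 in D+F and 0.525 in D+F+P, against 0.696 in control. Melanoma markers in these cells were at 13.8% of the melanoma-like level in aPD-1, 5.74% in D+F and 1.48% in D+F+P, against 26.8% in control. The part of melanoma RNA in these ratios was not tested.

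**Figure D4:**
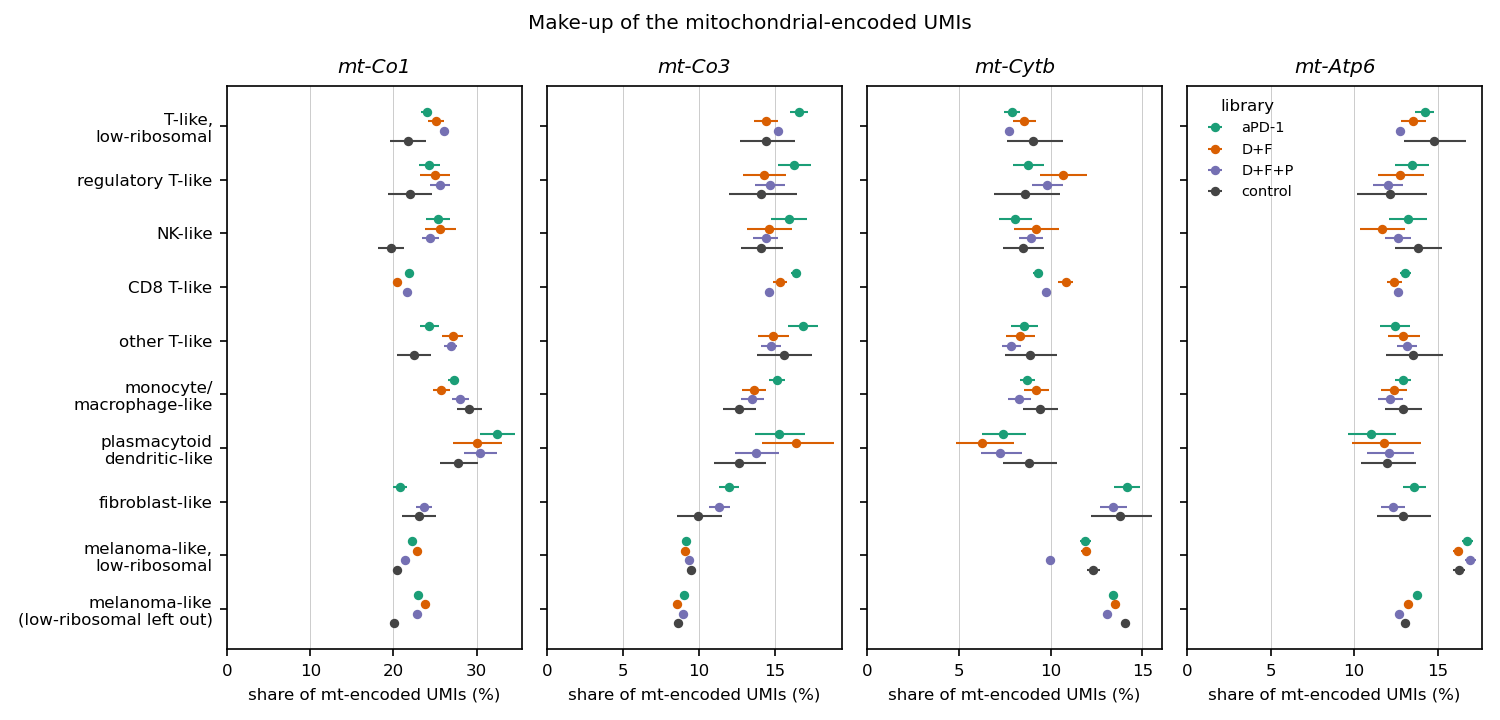
Share of mitochondrial UMIs (percent) of mt-Co1, mt-Co3, mt-Cytb and mt-Atp6 by cell class and library, points with 95% counting bars and none for a library with under 10 cells of the class. mt-Co3 lies at 14.6 to 16.4% in CD8 T-like cells and at 8.53 to 9.04% in melanoma-like cells, while the mt-Atp6 ranges overlap.

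The low-ribosomal melanoma-like and T-like clusters had high mitochondrial and low nuclear message together. The neutrophil-like cluster, also low-ribosomal, did not have the first. In control, its 1 library with 10 or more cells, it had 1.46% mitochondrial-encoded and 0.83% nuclear-encoded UMIs. The low-ribosomal melanoma-like cells had mitochondrial shares of 11.8% in aPD-1, 13% in D+F and 12.1% in D+F+P, against 13.2% in control, and nuclear shares of 2.87% in aPD-1, 2.57% in D+F and 2.86% in D+F+P, against 2.77% in control. Against the other melanoma-like cells of their library all 13 mitochondrial genes were higher in each. Nuclear members past 1.5-fold were 3 higher and 69 of 86 lower in aPD-1 (52.3% and 17.4% of all genes), 5 and 69 of 87 in D+F (54.2% and 18%), 3 and 69 of 85 in D+F+P (49.7% and 18.7%) and 4 and 74 of 86 in control (52.6% and 21%). Between 49.7% and 54.2% of all genes were thus 1.5-fold higher in these cells, while most nuclear members were 1.5-fold lower. Cells over a 20% mitochondrial share had been left out beforehand, which caps the share a cell here can show.

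Of 86 nuclear members with a transcript length, 7 had a median log2 ratio over libraries above 0, and 6 of these have transcripts over 1000 bases. Length is that of the annotated protein-coding transcript with the best principal-isoform rank, the longest where several tied. Which transcript the cells expressed was not tested. Ndufs1 (2661 bases) was at 1.36, Sdha (2900) at 0.91, Ndufaf7 (1749) at 0.41 and Atp5a1 (2471) at 0.22, while Cox8b, the shortest at 360 bases, was at 0.63 in the 1 library where it could be read. The lowest were of mixed length: Atp5e (421 bases) was at −2.16, Atp5g2 (731) at −2.01, Ndufaf3 (1487) at −1.96 and Atp5g1, the longest at 4715 annotated bases (408 of them coding), at −1.96. Across 86 members the ratio went with transcript length (Pearson r 0.41 with log2 length, Spearman rho 0.42), with medians of −1.53 for 18 members under 600 bases, −1.23 for 29 of 600 to 1000 and −0.77 for 39 longer ones. Members share their libraries and cells, so this is a description across genes. In low-ribosomal T-like cells of D+F+P, 4 nuclear members were higher and 63 of 83 lower than in the other T-like and NK-like cells, where 51.8% and 19.9% of all genes were. Ndufs1 (1.42), Ndufa9 (0.74) and Sdha (0.64), as medians over 3 libraries, were among the high ones. The correlations there were 0.38 and 0.37 over 83 members. These T-like cells had median depths of 578 to 696 UMIs, and their melanoma markers summed to 12.8 to 34.1% of the level in melanoma-like cells; the part of either was not tested.

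**Figure D5:**
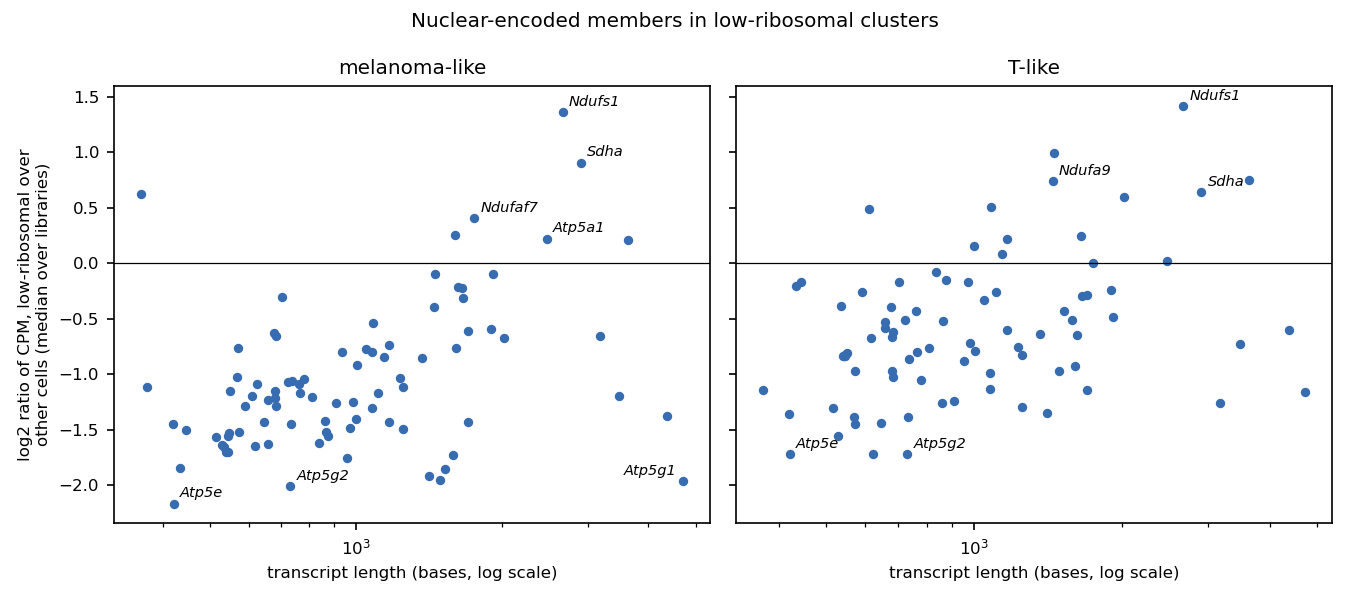
Log2 ratio of CPM in low-ribosomal over other cells of the same library (median over libraries, vertical axis) against transcript length in bases (log axis) for nuclear members, in melanoma-like (left) and T-like (right) cells. Atp5e and Atp5g2 lie lowest and Ndufs1 and Sdha above 0 in both, while Atp5g1, with the longest annotated transcript used, is among the lowest in melanoma-like cells.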

How the data were processed

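Single-cell RNA was measured in 4 libraries of B16F10 tumour cells, 1 per group, by 10x 5′ V(D)J chemistry per the labels' protocols. Cell Ranger 3.1.0 and GRCm38/mm10 are named in the submitters' processing notes. The deposited matrices hold raw UMI counts per gene and barcode; depth was 22691663 to 34444856 UMIs per library, and intervals and floors (3 counts) cover counting error only. Groups were taken from the sample titles.

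Barcodes under 300 genes or 500 UMIs, or with over 20% of UMIs from mitochondrial genes, were dropped. Scrublet marked 46 of 9461 cells (0.486%), too few for it to be taken as having worked, so doublets remain among the 9415 cells after these were removed. Cells were clustered with Scanpy 1.11.5 (2000 variable genes without the members, 30 components, 15 neighbours, Leiden resolution 1, seed 0), giving 19 clusters named from marker lists; cell type names are rebuilt and not the authors'. UMIs were summed per class and library. Ratios of CPM carry exact conditional binomial 95% intervals and shares Clopper-Pearson 95% intervals (scipy 1.17.1). A ratio was read only where the pair of libraries held 50 UMIs of the gene; no p-value was computed. Counts were also simulated for melanoma-like D+F+P against control with counting error only (Poisson), the error that the intervals assume. The intervals covered 95.5% of 9410 unchanged genes, and all genes changed by 1 or 2 on the log2 scale passed 1.5-fold. These genes were chosen to have at least 50 UMIs on average in the smallest library. The simulation therefore checks the calculation and does not cover genes near the minimum of 50 UMIs per pair.

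Genes named were all mitochondrial members, Sdha to Sdhd, the 2 subunits with the most UMIs in complexes I, III, IV and V, tissue isoforms and their partners, and the nuclear members with the 4 highest lower and 4 lowest upper interval bounds in each comparison; members past 1.5-fold or counted in 5 or fewer were also named. The members and lists were chosen with earlier results of these data known. Alternatives changed the mitochondrial cap, cell minimum, low-ribosomal clusters, depth, scaling, clustering and UMI minimum.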

Additional observations from a re-analysis of the deposited data

Results flagged for a closer look

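Other T-like cells outside the low-ribosomal clusters (58 cells in aPD-1, 97 in D+F and 126 in D+F+P, against 26 in control) differed from control in the opposite direction to melanoma-like cells in aPD-1 and in D+F, but not in D+F+P. The mitochondrial-encoded sum had a log2 ratio of −0.14 (−0.22 to −0.06) in aPD-1 and −0.46 (−0.55 to −0.38) in D+F, against 0.37 and 0.20 in melanoma-like cells without the low-ribosomal cluster. The nuclear-encoded sum had 0.13 (0.06 to 0.21) in aPD-1 and 0.10 (0.02 to 0.18) in D+F, against −0.030 and −0.030 in melanoma-like cells. In D+F+P the mitochondrial-encoded sum had −0.01 (−0.09 to 0.06), against 0.14 in melanoma-like cells, and the nuclear-encoded sum −0.0040 (−0.08 to 0.07), against −0.032, so both intervals include 0. The differences between the classes were not tested, and the control values rest on 26 cells.

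A cluster of 552 cells that was left unnamed, with Igkc and Igha among its leading genes and 9 of 9 melanoma markers detected, entered no comparison. The mitochondrial genes held 5.34% of its UMIs in D+F+P, against 4.21% in control, a difference that was not tested. Over the 4 libraries the share ranged from 2.92 to 5.34%, so not every treated library was above control. There were 1.12 mt-Cytb UMIs per mt-Co3 UMI in aPD-1, 1.71 in D+F and 0.634 in D+F+P, against 1.82 in control. Whether the libraries hold the same mixture of cells in this cluster was not tested.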

How the results depend on the processing

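The 15 sums and counts compared with control were recomputed under 12 alternatives, 10 planned and 2 chosen after seeing the data (clusters weighted equally, and no melanoma-like cluster 3); of 147 values, 62 stayed within the counting interval or 1.5 times the count and 85 did not; 20 of the sums changed sign. Values are log2 ratios in the order aPD-1, D+F, D+F+P unless named, and the cause of each move was not tested. With no cap the cells were also clustered anew, so the classes held other cells. T-like and NK-like cells then numbered 591 in aPD-1, 431 in D+F and 1295 in D+F+P, against 107 in control. In the main setting they numbered 684, 475 and 1690, against 106. The melanoma-like mitochondrial sum (0.40, 0.23, 0.22) was 0.45, 0.24, 0.32 with no cap, 0.35, 0.20, 0.15 with a 10% cap, 0.37, 0.20, 0.14 without the low-ribosomal cluster, 0.42, 0.26, 0.33 thinned to 1000 UMIs, 0.45, 0.27, 0.28 over a total without mitochondrial and ribosomal protein genes, 0.45, 0.29, 0.32 by median-of-ratios scaling, 0.28, 0.17, 0.0054 with clusters weighted equally and 0.33, 0.19, 0.16 without cluster 3. It was above control throughout. The melanoma-like nuclear sum (−0.04, −0.04, −0.05) was −0.051, −0.041, −0.057 with no cap, −0.031, −0.032, −0.037 with a 10% cap, −0.030, −0.030, −0.032 without the low-ribosomal cluster and −0.058, −0.047, −0.068 thinned. It changed sign to 0.016, 0.0052, 0.0099 over the reduced total, to 0.016, 0.029, 0.055 by median-of-ratios scaling, which in D+F+P moved the all-gene median by 0.10, and to 0.0063, 0.0056, 0.0085 without cluster 3. It was −0.033 in D+F when the members entered the clustering, and −0.058 in D+F and −0.037 in D+F+P with clusters weighted equally. The count of nuclear members past 1.5-fold in D+F+P (4) was 2 with the 10% cap or a minimum of 200 UMIs and 1 without the low-ribosomal cluster or under either scaling; in aPD-1 (2) and in D+F (2) it was 1 at 200 UMIs. Thinned, it was 5 in aPD-1, 2 in D+F and 3 in D+F+P, but all of these were lower and none was past the fold before thinning. Thinned, Cox8b, Ndufa4l2 and Cox7a1 fell below 50 UMIs in each pair and could not be read, and Ndufs8 was not past the fold. The 5, 2 and 3 were Ndufaf2, Ndufaf5, Ndufaf6, Ndufaf7 and Ndufs1 in aPD-1, Ndufaf1 and Ndufaf2 in D+F, and Ndufaf6, Ndufaf7 and Uqcrc1 in D+F+P. In T-like and NK-like cells the mitochondrial sum (0.10, −0.03, 0.59) was −0.24, −0.26, 0.17 with no cap, and 0.24, 0.068, 0.88 thinned. In aPD-1 it was 0.065 with the 10% cap and 0.14 over the reduced total, and in D+F 0.0062 at 1000 genes and 2000 UMIs per cell and −0.26 with clusters weighted equally. In D+F+P it was 0.30 with the 10% cap, 0.30 at 1000 genes and 2000 UMIs, 0.16 without the low-ribosomal clusters, 0.53 by median-of-ratios scaling, 0.54 clustered with the members and 0.13 with clusters weighted equally. The nuclear sum there (0.03, 0.06, −0.03) was −0.0054 at 1000 genes and 2000 UMIs, 0.071 over the reduced total, 0.064 by median-of-ratios scaling and −0.017 with clusters weighted equally in aPD-1, and 0.027 thinned and −0.014 with equal weights in D+F. In D+F+P it was 0.029 with no cap, 0.019 with the 10% cap, 0.013 at 1000 genes and 2000 UMIs, 0.068 without the low-ribosomal clusters, −0.15 thinned, −0.087 by median-of-ratios scaling and −0.084 with equal weights. No paired analysis was possible because each group has 1 library. No library could be left out for the same reason. Median depth in D+F+P was the lowest of the libraries over all cells and the highest in melanoma-like cells. Control has the fewest lymphoid cells, which limits values of rare members there.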
